A study of Mus musculus with 8 samples.

Results

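Janus kinases (JAKs) and the STAT transcription factors they phosphorylate were examined in 2-cell mouse embryos. The 9 genes were Stat2, Stat3, Stat4, Stat5a, Stat5b, Stat6, Jak1, Jak2 and Socs3, out of 18193 genes that had a probe set with a single symbol in the platform annotation. They were chosen by family membership, and Stat4 was selected on its lower signal in Brg1 mutants, so its difference between the groups is given as a description with no test. The genes had 21 probe sets on the Affymetrix array, and each had at least 1 of the 17 that passed a filter keeping the upper 50% of probe sets by mean log2 signal.

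The groups were 4 Brg1 mutant samples and 4 wild type samples, each made from the total RNA of 20 pooled embryos on 1 array. BRG1, encoded by Smarca4, is the ATPase of BAF chromatin remodelling complexes, and the title of the series concerns maternal BRG1 and activation of the zygotic genome. The sources used here do not name the Brg1 allele, the way it was mutated, the strain or the matings. The labels speak of biological replicates without further detail, so a p-value covers only the spread seen among these 8 samples.

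In this pathway a cytokine such as LIF, interleukin-6 or interferon brings receptor chains together and activates the JAKs bound to them. The JAKs phosphorylate the receptor and then a STAT protein, which pairs with another STAT and enters the nucleus to bind DNA. Socs3, itself a STAT target, blocks gp130 receptors and their JAKs and so closes a negative feedback loop. In mouse embryonic stem cells LIF acting through STAT3 maintains self-renewal, and in lymphocytes STAT4 and STAT6 act downstream of interleukin-12 and interleukin-4.

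The arrays had been scaled to the same trimmed mean, with median signals between 36.3 and 47.6, and precision is limited by having 4 of them per group. Signal below is the MAS5 signal of a probe set, a linear intensity that can be set against other samples but not against other probe sets. As a bound on background, each array's 27 Bacillus control probe sets gave a 95th percentile between 14.7 and 37.7. On the brighter Smarca4 probe set all mutant samples (200.9 to 387.5) read lower than all wild type samples (612.1 to 796; log2 change -1.26, limma adjusted p = 0.0211), and the second Smarca4 probe set did not differ beyond its spread (log2 change 0.04, limma adjusted p = 0.963). The mutant arrays fell into 2 unlike pairs. Their log2 signals correlated at 0.895 (replicates 1 and 2) and 0.969 (replicates 3 and 4) within pairs, and at 0.738 to 0.774 between pairs. Wild type arrays parted the same way but less, at 0.948 (replicates 1 and 2) and 0.969 (replicates 3 and 4), and 0.916 to 0.941 between. Each comparison of a mutant pair alone rests on 2 mutant arrays, set against all 4 wild type arrays. Of 20 granulosa and cumulus cell markers, 13 read above every wild type array in both mutant replicates 3 and 4, whereas 3 did in both replicates 1 and 2. By limma, 19.2% of all genes were called higher with mutant replicates 3 and 4 alone, and 3.86% with replicates 1 and 2 alone. How many of all probe sets read above every wild type array in both replicates of a pair was not counted. The summed signal of the granulosa and cumulus markers was 25053 and 21436 in mutant replicates 3 and 4, 3034 and 1892 in replicates 1 and 2, and 2746 to 3575 in wild type. Among defining markers, Hsd3b1 read 8835 and 6889 in mutant replicates 3 and 4, 20.1 and 50.5 in replicates 1 and 2, and 7 to 32.7 in wild type, while Amh read 6.5 to 15.9 in mutant and 4.1 to 31.9 in wild type samples. The summed signal of 12 oocyte and early embryo markers was 28090 and 34314 in mutant replicates 1 and 2, 18663 and 16897 in replicates 3 and 4, and 14035 to 19073 in wild type. Of these 12, 11 read above every wild type array in both mutant replicates 1 and 2, and 5 did in both replicates 3 and 4. Sums for oviduct epithelium markers were 571 to 963 in mutant and 476 to 827 in wild type samples, those for sperm markers 97 to 273 and 164 to 232, and those for blood markers 495 to 651 and 487 to 704. The main results are therefore also given for replicates 1 and 2 and for replicates 3 and 4 apart, and the part of the marker signal in it was not tested. In pooled embryos, fewer cells of a type and less RNA per cell cannot be told apart.

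Apart from Stat4, none of the 16 tested probe sets of the other 8 genes passed the test between Brg1 mutant and wild type embryos (limma, Benjamini-Hochberg adjusted p from 0.0563 to 0.945), while 6.56% of all 22518 tested probe sets did. At an unadjusted p under 0.05 there were 4 of 16, against 25.5% of all tested probe sets. Their log2 changes ran from -0.83 to 1.28, with 9 positive and 7 negative, and their median was 0.06 against -0.05 for all tested probe sets. On 5 of these 16 probe sets mutant and wild type readings had no overlap, against 17.5% of all tested probe sets. The mutant readings were higher for 3, on probe sets of Stat3 and Stat5a, and lower for 2, on probe sets of Jak1 and Stat6, against 7.83% and 9.67% of all tested probe sets. With mutant replicates 1 and 2 alone against wild type again none of the 16 passed, where 6.71% of all did. With replicates 3 and 4 alone 6 of 16 passed, Stat5b among them, close to the 41.6% of all tested probe sets that did. For 6 of the 16, the 2 pairs of mutant arrays differed from wild type in opposite directions, against 41.5% of all.

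**Figure D1:**
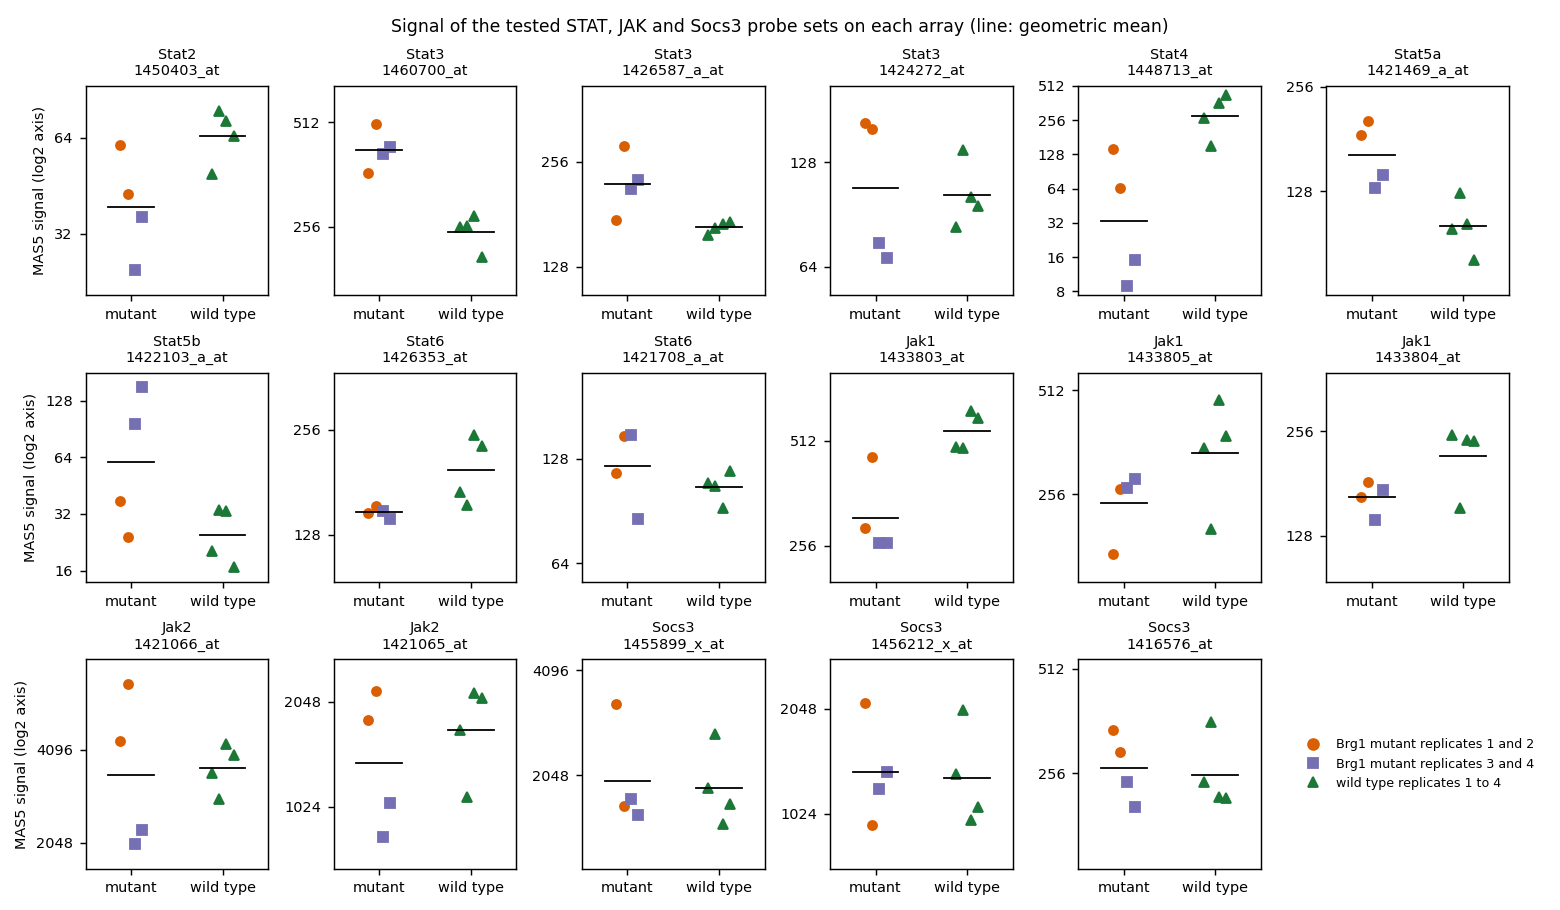
MAS5 signal (log2 axis, a scale for each panel) of the 17 tested probe sets on each of the 8 arrays, with Brg1 mutant samples on the left of each panel, wild type samples on the right, and a line at the geometric mean of each group. Stat4 read 8.9 to 141.3 in the mutants and 151.3 to 428.3 in wild type, and the brightest Stat3 probe set 364.6 to 507.5 and 209.4 to 274.6.

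Stat4, the interleukin-12 and type I interferon responsive factor of lymphocytes, had a single probe set (1448713_at). Its signal was 141.3, 65, 8.9 and 15 in mutant replicates 1 to 4, against 266, 151.3, 359.8 and 428.3 in wild type replicates 1 to 4. All mutant samples lay below all wild type samples, although the highest mutant and the lowest wild type reading were only 10 signal units apart. The mean log2 signal was 5.06 ± 1.85 in mutant and 8.13 ± 0.66 in wild type samples (SD, n = 4 each), a log2 difference of -3.08 (SE 0.771). Since 2 mutant readings lay under the background bound, this difference is not an exact level, and with those readings set to the bound it was -2.87. The difference was not equal in the 2 pairs. Mutant replicates 1 and 2 were 2.93-fold below wild type (log2 difference -1.55). Replicates 3 and 4, the readings under the bound, were at least 18.2-fold below wild type.

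The promoter sequences of Stat4 are shown because it had the largest difference among the 9 genes and its 2 annotated start sites held the fewest CpGs of their 12 promoters. Each runs from 250 bases before to 50 bases after the start, from RefSeq on GRCm38.p6, with CpG dinucleotides in capitals. Stat4 at chr1:51986898-51987197 (plus strand) held 2 CpGs at 50.7% G and C, and at chr1:52007990-52008289 (plus strand) 4 CpGs at 46% G and C.
Stat4 first start: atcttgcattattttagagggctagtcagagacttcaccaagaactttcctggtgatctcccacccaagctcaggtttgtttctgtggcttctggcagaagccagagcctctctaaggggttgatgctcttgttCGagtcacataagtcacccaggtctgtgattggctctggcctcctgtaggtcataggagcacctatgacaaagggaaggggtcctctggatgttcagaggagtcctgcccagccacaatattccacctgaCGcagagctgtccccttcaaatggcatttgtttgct
Stat4 second start: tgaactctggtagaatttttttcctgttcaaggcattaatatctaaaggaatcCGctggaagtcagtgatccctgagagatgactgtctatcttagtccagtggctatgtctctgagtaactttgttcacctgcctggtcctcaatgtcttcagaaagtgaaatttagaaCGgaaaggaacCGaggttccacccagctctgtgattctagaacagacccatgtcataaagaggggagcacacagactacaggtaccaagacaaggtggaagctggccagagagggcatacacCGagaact
Of the 12 promoters annotated for the 9 genes, those of Jak1, Jak2, Socs3 and Stat2 held 29, 44, 31 and 22 CpGs, and that of Stat3 held 15. For Stat5a the 2 promoters held 5 and 27, for Stat5b 7 and 50, and Stat6 had 8. The median over 32851 mouse promoters of the same length was 7, with quartiles of 3 and 20. These counts describe the letters only, and no file here measured methylation or binding at them.

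The genes whose pattern over the 8 arrays was nearest to that of Stat4 were Tex26, Lrrc4, Insm1, Taf9b and Scin. Likeness was the root mean square difference between log2 signals centred on each gene's own mean, and it was 0.51, 0.68, 0.69, 0.72 and 0.75 for these genes, where the spread of Stat4 around its own mean was 1.95. Tex26 read 200.3, 171.2, 14.9 and 47 in mutant replicates 1 to 4, against 354.9, 367.2, 409.3 and 563.7 in wild type replicates 1 to 4. Like Stat4, all 5 read lower in each mutant array than in any wild type array, and lower in mutant replicates 3 and 4 than in replicates 1 and 2. They were chosen for their likeness to Stat4, so this shared order is no separate result.

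**Figure D2:**
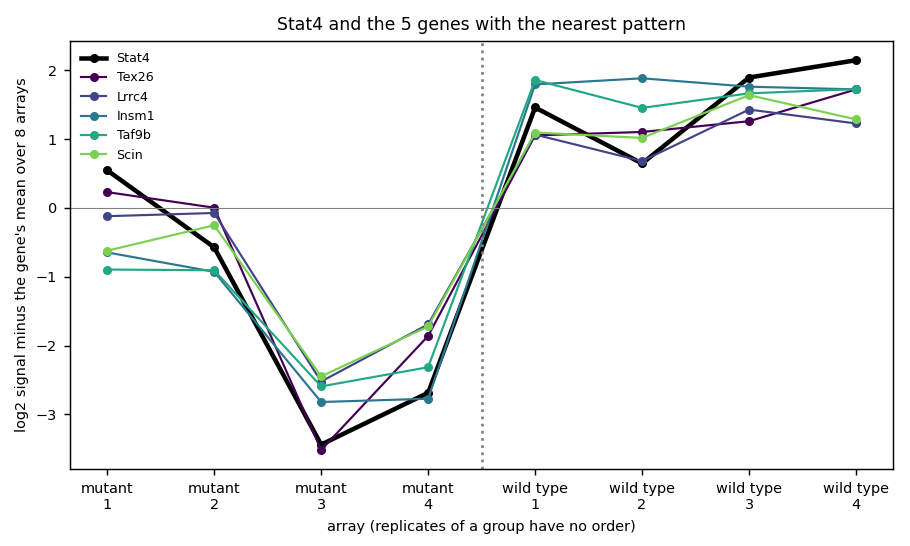
Log2 signal of Stat4 (thick line) and of the 5 genes nearest to it in pattern, each minus its mean over the 8 arrays, with Brg1 mutant arrays on the left and wild type arrays on the right. The 6 genes are lowest on mutant arrays 3 and 4, where Stat4 read 8.9 and 15.

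Stat3, the factor downstream of LIF and interleukin-6 receptors, had 4 probe sets whose values differed in pattern. The brightest (1460700_at) read 364.6, 507.5, 415.4 and 433.1 in mutant replicates 1 to 4, against 256.1, 256.9, 274.6 and 209.4 in wild type replicates 1 to 4. All mutant samples were above all wild type samples, and both mutant pairs were about as far above them (log2 differences 0.79 and 0.77). The estimate was a 1.72-fold higher signal that missed the threshold (log2 change 0.78, SE 0.217, limma adjusted p = 0.0563). It crossed it without mutant replicates 1 and 2, where 41.6% of all tested probe sets passed, and without mutant replicate 1 (limma adjusted p = 0.0127 and 0.0389). It did not without replicates 3 and 4 (limma adjusted p = 0.0915) or without any other single array. It also missed the threshold with quantile normalization, median centring, 75th percentile centring and a replicate block (limma adjusted p = 0.0693, 0.115, 0.116 and 0.138). With an upper 30% filter and with array weights it passed (limma adjusted p = 0.0454 and 0.00151).

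A second Stat3 probe set (1426587_a_at) read 174.5, 285.1, 213.3 and 227.1 in mutant samples, against 157.6, 165, 169.3 and 171.6 in wild type samples. Here too the groups did not overlap, but the lowest mutant reading was within 3 units of the highest wild type one (log2 change 0.42, SE 0.231, limma adjusted p = 0.290). On the third (1424272_at) the groups overlapped and the mutant pairs went opposite ways, at 165.9 and 159.7 in replicates 1 and 2, 75.2 and 68 in replicates 3 and 4, and 83.2 to 138.9 in wild type (log2 change 0.07, limma adjusted p = 0.934). The dimmest (1459961_a_at) was too dim for the test, at 21 to 48.1 in mutant samples and 1.7 to 17.5 in wild type samples, and every wild type reading was under the background bound. Its mean was at least 1.36-fold higher in the mutants than in wild type. Where along the transcript each of the 4 lies is not given in the files.

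The 5 genes nearest to the brightest Stat3 probe set in pattern were Btbd7, Zfp653, Slc48a1, Gosr2 and Prodh, with root mean square differences of 0.10 to 0.14 on the log2 scale over 8 arrays, against a spread of 0.42 for Stat3 itself. Btbd7 read 750.1, 1192, 781.6 and 896.3 in mutant samples and 572.4, 534.4, 555.3 and 485.1 in wild type samples. As for Stat3, to which it was matched by choice, mutant replicate 2 was the highest of the 8 arrays.

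Stat5a and Stat5b encode closely related factors of prolactin, growth hormone and interleukin-2 signalling, and in the RefSeq annotation of mouse chromosome 11 they neighbour each other and Stat3, in the order Stat5b, Stat5a, Stat3. The tested Stat5a probe set (1421469_a_at) read 185.6, 203.9, 130.7 and 142.7 in mutant replicates 1 to 4, against 100, 126.3, 103.2 and 81.5 in wild type replicates 1 to 4. All mutant samples were higher, by 1.61-fold in the mean, without passing the test (log2 change 0.68, SE 0.261, limma adjusted p = 0.135). The other Stat5a probe set, too dim for the test, read 24.3 to 46.4 in mutant and 29 to 40.7 in wild type samples.

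The tested Stat5b probe set (1422103_a_at) read 37.3, 24.2, 96.5 and 151 in mutant replicates 1 to 4, against 20.3, 33.4, 33.1 and 16.7 in wild type replicates 1 to 4. Only mutant replicates 3 and 4 were clearly above wild type. These arrays also had high granulosa marker signal, and a link was not tested. One mutant and one wild type reading were under the background bound, and over all samples the change did not pass (log2 change 1.28, SE 0.571, limma adjusted p = 0.189). The log2 difference from wild type was 2.29 in replicates 3 and 4 and 0.28 in replicates 1 and 2. The probe set passed the filter, at a mean log2 signal of 5.25 or more, only through replicates 3 and 4 (mean of 5.27 over all arrays and 4.63 in wild type), so its call with those arrays alone is no independent result. The other Stat5b probe set did not share this, at 47.9, 26, 19.9 and 13.4 in mutant samples and 15.5 to 32.9 in wild type samples, and was too dim for the test. Since the genes are near-identical in places and probe sequences were not used here, cross-hybridisation between Stat5a and Stat5b was not tested.

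Stat6, the factor of interleukin-4 and interleukin-13 receptors, had 2 tested probe sets. The brighter (1426353_at) read 147.7, 154.5, 149.1 and 141.7 in mutant samples, against 169.6, 156, 246.9 and 229.3 in wild type samples. The mutant readings were tightly grouped and just below the lowest wild type one, and the difference did not pass (log2 change -0.41, SE 0.240, limma adjusted p = 0.317). The other (1421708_a_at) read 85.6 to 149.4 in mutant and 92.3 to 117.8 in wild type samples, with overlapping groups and the opposite sign (log2 change 0.20, limma adjusted p = 0.689).

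Stat2, which joins interferon receptors to IRF9 in the ISGF3 complex, was dim. Its tested probe set (1450403_at) read 60.7, 42.7, 24.7 and 36.1 in mutant samples, against 49.3, 77.7, 72.2 and 64.8 in wild type samples. Mutant replicate 1 lay within the wild type range and the other three below it, and the change did not pass over all samples (log2 change -0.74, SE 0.349, limma adjusted p = 0.215). It passed with mutant replicates 3 and 4 alone, where 41.6% of probe sets did (log2 change -1.12, limma adjusted p = 0.0216). The second Stat2 probe set, not tested, read 18.9 to 37.9 in mutant and 10.7 to 48.7 in wild type samples.

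Jak1 encodes the kinase shared by gp130, interferon and common gamma chain receptors. Its brightest probe set (1433803_at) read 288.1, 460.7, 260.7 and 259.9 in mutant replicates 1 to 4, against 491.5, 488.5, 623.2 and 596.4 in wild type replicates 1 to 4. All mutant samples were lower, replicate 2 by the smallest margin, and the 1.77-fold lower mean did not pass the test (log2 change -0.83, SE 0.252, limma adjusted p = 0.0735). It passed without mutant replicate 2 (log2 change -1.02, limma adjusted p = 0.0204) and with mutant replicates 3 and 4 alone (log2 change -1.07, limma adjusted p = 0.00226), but not with replicates 1 and 2 alone (log2 change -0.59, limma adjusted p = 0.209). The other 2 Jak1 probe sets had the same sign with overlapping groups. They read 171.7 to 282.8 and 142.4 to 182.3 in mutant samples, and 202.8 to 479.5 and 153.5 to 249.5 in wild type samples (log2 changes -0.47 and -0.39, limma adjusted p = 0.365 and 0.350).

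Jak2, the kinase of prolactin, growth hormone and erythropoietin receptors, set the mutant pairs apart. Its brighter probe set (1421066_at) read 4355, 6676, 2024 and 2245 in mutant replicates 1 to 4, against 3437, 2834, 4269 and 3945 in wild type replicates 1 to 4. Mutant replicates 1 and 2 were the highest of the 8 arrays and replicates 3 and 4 the lowest. Over all samples the log2 change was -0.08 (SE 0.378, limma adjusted p = 0.925). It was 0.59 with replicates 1 and 2 alone (limma adjusted p = 0.158) and -0.75 with replicates 3 and 4 alone (limma adjusted p = 0.0113). The other probe set (1421065_at) read 1822, 2205, 836 and 1048 in mutant samples and 1089 to 2175 in wild type samples, with log2 changes of 0.23 and -0.87 for the pairs in that order (limma adjusted p = 0.658 and 0.0327). The direction of Jak2 in Brg1 mutants therefore differed with the arrays used.

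**Figure D3:**
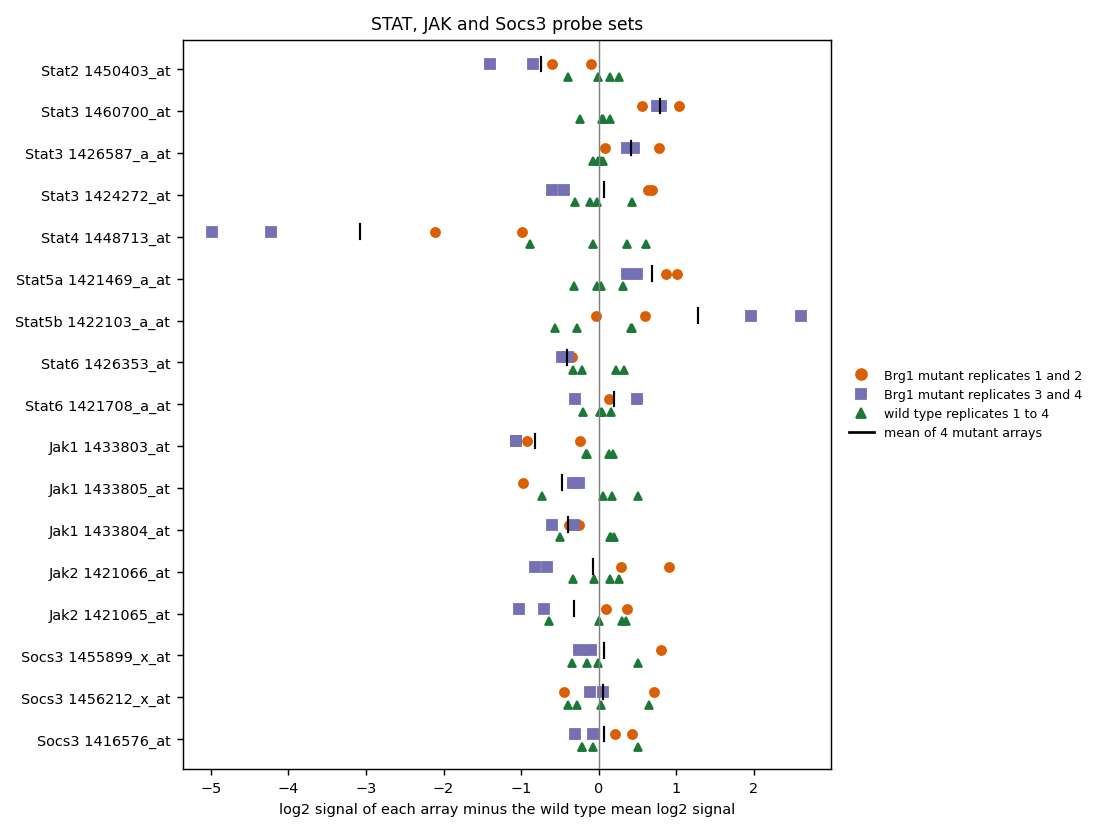
Log2 signal of each array minus the wild type mean log2 signal for the 17 tested probe sets: mutant replicates 1 and 2 (circles), mutant replicates 3 and 4 (squares), wild type (triangles), with a bar at the mean of the 4 mutant arrays. Stat4 lies farthest left (mean -3.08), the brightest Stat3 probe set has all mutant arrays to the right (mean 0.78), and both Jak2 probe sets have the mutant pairs on opposite sides.

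Socs3, the feedback inhibitor, was measured by 3 tested probe sets, all above the background bound on every array. One (1455899_x_at) read 3281, 1673, 1751 and 1574 in mutant replicates 1 to 4, against 1877, 2683, 1478 and 1693 in wild type replicates 1 to 4. One mutant and one wild type sample stood above the rest and the groups overlapped, with a log2 change of 0.07 (SE 0.301, limma adjusted p = 0.921), a sign that turned with median centring (-0.11) and 75th percentile centring (-0.079). The others (1456212_x_at and 1416576_at) read 949 to 2128 and 205.4 to 341.6 in mutant samples, and 984 to 2032 and 217.7 to 360.2 in wild type samples. Their log2 changes were 0.05 and 0.07 (SE 0.317 and 0.265, limma adjusted p = 0.945 and 0.906). The 3 probe sets ordered wild type replicate 2 as the highest of its group and mutant replicate 1 as the highest of its own. The missed threshold does not show that the level was the same in both groups.

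The Socs3 promoter is shown because it was the one promoter among the 12 with the STAT motif TTCNNNGAA, in capitals, which reads the same on both strands and was found 154 bases before the start. The sequence is RefSeq's on GRCm38.p6, chr11:117969317-117969616 (minus strand).
Socs3: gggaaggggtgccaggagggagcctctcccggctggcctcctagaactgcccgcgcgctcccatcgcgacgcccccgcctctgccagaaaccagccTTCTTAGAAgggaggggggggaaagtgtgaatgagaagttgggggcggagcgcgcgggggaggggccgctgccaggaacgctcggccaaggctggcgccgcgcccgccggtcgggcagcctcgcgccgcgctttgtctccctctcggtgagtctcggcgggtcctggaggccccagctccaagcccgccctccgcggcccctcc
The motif was present in 8.30% of the 32851 mouse promoters of that length. The form with 4 bases between TTC and GAA, which STAT6 favours, was found in the Stat2 promoter alone of the 12 and in 6.95% of all. A match describes these letters and is not a measured binding site.

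Other genes of the pathway were taken from lists of ligands, receptors, inhibitors and targets, 156 genes in all. Of these, 87 had a tested probe set, and 6 rose, 4 fell and 77 did not pass, together 11.5% against 7.04% of all 11934 genes (3.01% higher and 4.03% lower). The median log2 change was -0.02, against -0.05 over all genes. With mutant replicates 1 and 2 alone 6 rose and 4 fell, where 3.86% and 3.58% of all genes did, and with replicates 3 and 4 alone 22 rose and 21 fell, where 19.2% and 24.4% did. Gadd45g, counted as a rise in each of these comparisons, passed the filter only through the mutants.

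Of 9 tested cytokine ligand genes none passed, where 7.04% of all genes did. The lowest limma adjusted p was 0.137, for Ifng, the type II interferon, with a log2 change of -1.63 (-0.71 and -2.56 for the mutant pairs), and this gene was singled out after its values were seen. Of 16 tested receptor genes, Crlf2, a chain of the receptor for thymic stromal lymphopoietin, rose 2.05-fold, 0 fell and 15 did not pass. Over all genes 3.01% were called higher and 4.03% lower. Crlf2 read 384.2, 298.1, 332.2 and 357.6 in mutant samples, against 117.6, 193, 196.5 and 174 in wild type samples (log2 change 1.03, SE 0.244, limma adjusted p = 0.0358). The groups did not overlap, as for 17.5% of all tested probe sets, with 298.1 the lowest mutant and 196.5 the highest wild type reading. The mutant pairs were alike (log2 differences 1.02 and 1.05). Yet the call was lost with replicates 1 and 2 alone (limma adjusted p = 0.0657), with median centring (0.0587) and with 75th percentile centring (0.0614). It held in only 2 of the fits with 1 array left out.

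Lifr, the LIF receptor chain that pairs with gp130, was too dim on average for the test. It read 33, 74.7, 218 and 215.4 in mutant replicates 1 to 4, against 2.2, 7.9, 6 and 7 in wild type replicates 1 to 4, and every wild type reading was under the background bound. All mutant samples were above all wild type samples, at least 4.28-fold in the mean, at least 2.05-fold for mutant replicates 1 and 2 and at least 8.93-fold for replicates 3 and 4. In a fit with no filter on dim probe sets it passed (limma adjusted p = 0.0185), where 1.43% of all probe sets were called higher. That fit took the wild type readings under the bound as they stood (log2 change 4.32), so its p-value does not belong to the bounded folds. Mutant replicate 1, at 33, was near its own bound of 27.2. The highest readings were on the arrays with high granulosa marker signal, and a link was not tested. Il6st, which encodes gp130 itself, read 614.5, 991.9, 232 and 280.9 in mutant samples, against 681.5, 393.4, 588.4 and 734.5 in wild type samples. It did not pass over all samples on this probe set (log2 change -0.39, limma adjusted p = 0.635), where the mutant pairs lay on either side of wild type (log2 differences 0.42 and -1.19). Another Il6st probe set passed in the opposite direction (log2 change 1.43, limma adjusted p = 0.0144, with 1.28 and 1.57 for the mutant pairs), and the remaining one did not pass (log2 change -0.29, limma adjusted p = 0.745). The probe sets of Il6st therefore gave no single direction.

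Il12rb1 and Il12rb2 encode the interleukin-12 receptor chains that activate STAT4, and neither was bright enough for the test. Il12rb1 read 11.5 to 55.8 in mutant and 7.6 to 53 in wild type samples. Il12rb2 read 8.8, 33.1, 31.6 and 25.7 in mutant samples, against 45.5, 48.7, 65.1 and 38.4 in wild type samples, with no overlap. The readings of mutant replicates 1 and 2 were under the background bound, and 17.5% of all tested probe sets had no overlap. A fit with no filter did not call Il12rb2 (limma adjusted p = 0.238). Il4ra, the interleukin-4 receptor chain that activates STAT6, did not pass (log2 change 0.42, limma adjusted p = 0.674), and the mutant pairs lay on either side of wild type (log2 differences 1.25 and -0.40).

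Among kinases and inhibitors outside the 9 genes, Pias3 was the one of 27 tested inhibitors and modifiers that fell, 0 rose and 26 did not pass. Over all genes 4.03% were called lower and 3.01% higher. Pias3 encodes a protein that binds STAT3 and blocks its DNA binding. It read 89.6, 80.1, 101.8 and 88.1 in mutant samples, against 257.7, 227.2, 173.8 and 217.9 in wild type samples, a 2.42-fold fall (log2 change -1.28, SE 0.235, limma adjusted p = 0.0184). The mutant readings were tightly grouped and both pairs passed alone (log2 changes -1.36 and -1.20, limma adjusted p = 0.0203 and 0.00322). Pias3 was named because it passed on these same arrays, so this is no separate result. Of the SOCS family, Socs2, an inhibitor of growth hormone signalling, read 148.5 and 154.2 in mutant replicates 1 and 2, 891.9 and 904 in replicates 3 and 4, and 51 to 237.7 in wild type. On this probe set it thus stood out on the arrays with high granulosa marker signal (limma adjusted p = 0.00259 with these alone and 0.163 over all samples), and a link was not tested. With these arrays alone 41.6% of all tested probe sets passed. The 2 other tested Socs2 probe sets did not pass over all samples (limma adjusted p = 0.775 and 0.0777). Socs1, an inhibitor of JAKs in interferon signalling, read 84.2 and 79.2, then 37 and 16.6, in the same pairs, against 59.4 to 111.1 in wild type. Its limma adjusted p was 0.282 over all samples and 0.00636 with replicates 3 and 4 alone. Cish, Pias1 and the kinase gene Tyk2 did not pass (log2 changes 0.15, -0.30 and -0.21, limma adjusted p = 0.851, 0.489 and 0.712), and Jak3 was too dim for the test, at 9.5 to 54.3 in mutant and 10.7 to 40.9 in wild type samples.

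Of 19 tested genes known as STAT3 or STAT5 targets in other cells, 1 rose, 3 fell and 15 did not pass. Over all genes 3.01% were called higher and 4.03% lower. Klf5, a Krüppel-like factor of the inner cell mass and trophectoderm, fell 3.52-fold, with 72 to 163.6 in mutant and 320 to 543.2 in wild type samples (log2 change -1.82, SE 0.314, limma adjusted p = 0.0157). Cebpd, a basic leucine zipper factor of the acute phase response, fell 3.60-fold, with 44.5 to 107.6 in mutant and 161.6 to 426.9 in wild type samples (limma adjusted p = 0.0216). Pim1, a serine/threonine kinase gene induced by cytokines, fell 2.40-fold, with 416.2 to 690 in mutant and 1008 to 1578 in wild type samples (limma adjusted p = 0.0229). Hif1a, the oxygen-responsive factor, rose 2.82-fold, with 1400 to 2686 in mutant and 561.6 to 948.1 in wild type samples (limma adjusted p = 0.0194). For none of these 4 genes did mutant and wild type readings overlap, as for 17.5% of all tested probe sets. Each passed with either mutant pair alone (limma adjusted p from 0.0229 to 0.0469 with replicates 1 and 2). Of all tested probe sets 6.71% passed with replicates 1 and 2 alone and 41.6% with replicates 3 and 4 alone. The genes were named because they passed on these same arrays, so neither count is a separate result. Klf5, Cebpd and Pim1 each had a second probe set that missed the threshold, with limma adjusted p = 0.878, 0.0849 and 0.218, and 1 of 2 others of Hif1a did.

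Myc read 43.4 and 48.6 in mutant replicates 1 and 2, 852.6 and 954.6 in replicates 3 and 4, and 39.7 to 69.4 in wild type. It was thus high only on mutant replicates 3 and 4, which also had high granulosa marker signal, and a link was not tested. Its limma adjusted p was 1.59e-05 with replicates 3 and 4 alone and 0.242 over all samples. The former rests on 2 mutant arrays that correlated at 0.969 with each other. With these arrays alone 41.6% of all tested probe sets passed. Bcl2l1 and Mcl1, inhibitors of apoptosis, did not pass (log2 changes 0.14 and -0.02, limma adjusted p = 0.847 and 0.988), with the mutant pairs on opposite sides of wild type for each.

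Of 7 tested interferon targets, 2 rose and 5 did not pass, where 3.01% of all genes were called higher and 4.03% lower. Irf7, a transcription factor of the interferon response, read 99.1, 109.8, 235.1 and 173.8 in mutant samples, against 40.9, 52.4, 23.1 and 48.7 in wild type samples (3.69-fold, limma adjusted p = 0.0226). B2m, the light chain of MHC class I, read 916.5, 968.1, 2873 and 2710 in mutant samples, against 458.7, 570.7, 373.7 and 525.7 in wild type samples (3.40-fold, limma adjusted p = 0.0314). Both were higher in replicates 3 and 4, the arrays with high granulosa marker signal, than in replicates 1 and 2, and a link was not tested. With replicates 1 and 2 alone B2m passed and Irf7 did not (limma adjusted p = 0.0455 and 0.0656). Of 9 tested genes known as STAT4 or STAT6 targets in lymphocytes, 2 rose and 7 did not pass, against the same shares of all genes. Furin, a proprotein convertase gene, read 234.3 to 370.1 in mutant and 108 to 146.9 in wild type samples (2.28-fold, limma adjusted p = 0.0226). Gadd45g, a stress-induced gene of the GADD45 family, read 57 to 284.9 in mutant and 6.2 to 35.2 in wild type samples, 2 of them under the background bound (log2 change 2.79, limma adjusted p = 0.0313). Gadd45g passed the filter only through the mutants (mean log2 signal 4.19 in wild type), so its calls are no independent result. In a fit with no filter its adjusted p was 0.0468 (limma). With mutant replicates 1 and 2 alone Furin did not pass (limma adjusted p = 0.0517).

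**Figure D4:**
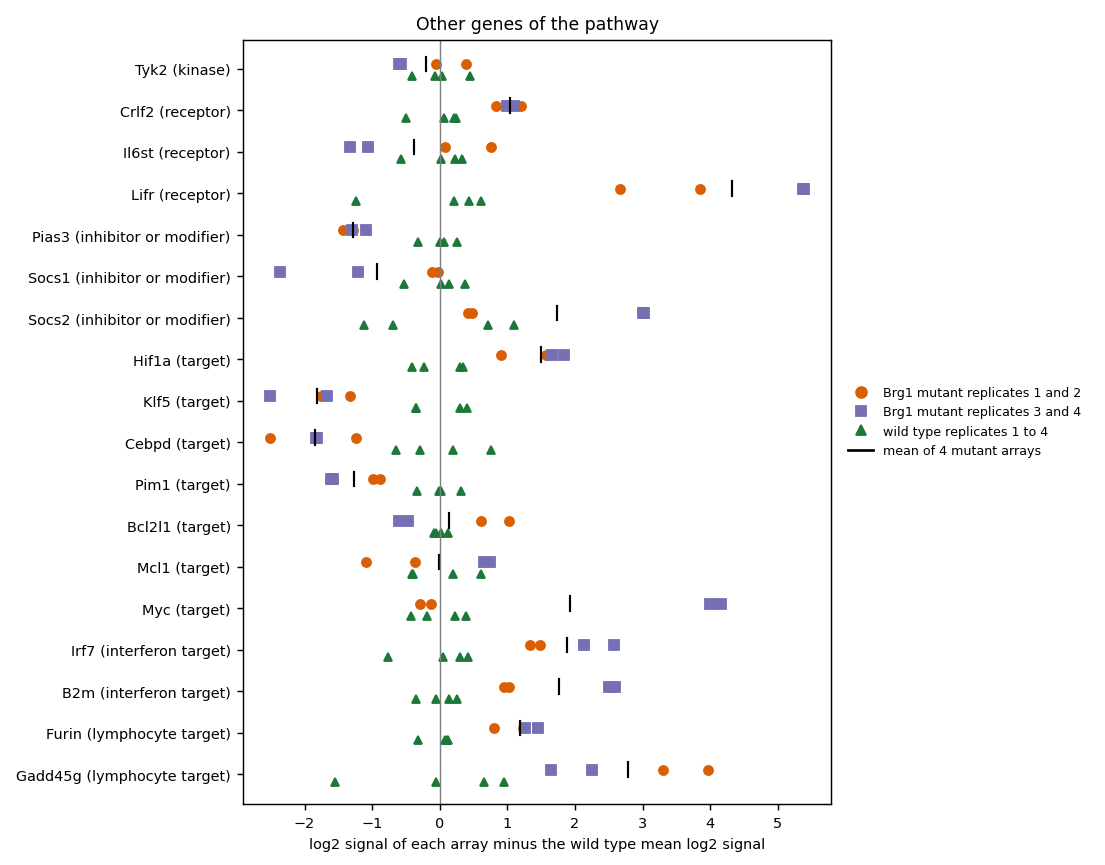
Log2 signal of each array minus the wild type mean log2 signal for other genes of the pathway, with circles for mutant replicates 1 and 2, squares for mutant replicates 3 and 4, triangles for wild type and a bar at the mean of the 4 mutant arrays. Pias3, Klf5, Cebpd and Pim1 have all mutant arrays left of wild type, while Socs2 and Myc stand out on mutant replicates 3 and 4, at 891.9 and 904 and at 852.6 and 954.6.

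Leaving out 1 array ended many calls of these 10 genes, as it did over all probe sets. Ranges of the log2 change are given here for Pias3, Klf5, Pim1 and Hif1a only. Without wild type replicate 4, for example, 40 probe sets in all were called higher and 33 lower. Over the 8 such fits the log2 change ran from -1.38 to -1.19 for Pias3, from -1.98 to -1.58 for Klf5, from -1.39 to -1.15 for Pim1 and from 1.36 to 1.70 for Hif1a. Without wild type replicate 1 or 4 none of the 10 passed (limma adjusted p from 0.0647 to 0.110 and from 0.0518 to 0.0979). Without wild type replicates 2 and 3, in turn, 3 and 2 passed, and without mutant replicates 3 and 4, in turn, 2 and 3 passed, with the others at an adjusted p between 0.0516 and 0.0969 (limma). Pias3 and Klf5 passed in each of these last 4 fits. All 10 passed without mutant replicate 1 and without mutant replicate 2.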

How the data were processed

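RNA of 20 embryos per sample was labelled and read on 1 array per sample, per the labels' protocols. The deposited intensities were MAS5 signals on a linear scale, as the submitters' processing notes name them. The sources used here do not give the MAS5 version. No 2 arrays held identical values.

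Signals were floored at 1 and put on the log2 scale. The upper 50% of 45037 probe sets by mean log2 signal (22518) were fitted together with limma 3.58.1 in R 4.3.3, using lmFit and eBayes with trend. Tests were two-sided, with Benjamini-Hochberg adjustment over all 22518 and a threshold of 0.05. Log2 changes are mutant minus wild type, with the fit's standard error. In the pathway lists a gene was represented by the brightest of its tested probe sets. Where a whole group was under the background bound, the fold is "at least" the brighter mean over the higher of bound and reading on each dim array. The fit was tested on simulated data.

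Platform annotation gave 1 symbol for 34945 probe sets, several for 932 and none for 9160. Identifiers of 34754 matched RefSeq's GRCm38.p6 table, with 0 symbols changed, and all 9 genes had a promoter entry.

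Members, lists, naming rule and alternatives were chosen with earlier results of these data known. All probe sets of the 9 genes are described. From each pathway list the genes that passed are named, up to 4 in each direction, plus fixed receptors, kinases, inhibitors and targets whether or not they passed.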

Additional observations from a re-analysis of the deposited data

Results flagged for a closer look

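A reading was looked at again where the gap between the highest or lowest sample and its nearest neighbour took up more of its group's range than Dixon's 95% critical value for 4 samples. This held in 5 of 94 groups of 4 samples, and chance gives about 1 in 20. On the untested Stat2 probe set 1421911_at, mutant replicate 4 was lowest, at 18.9. On Jak1 1433805_at, mutant replicate 1 was lowest, at 171.7. On Jak1 1433804_at, wild type replicate 2 was lowest, at 153.5. On Socs3 1455899_x_at, mutant replicate 1 was highest, at 3281.3. For Furin, wild type replicate 4 was lowest, at 108.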

How the results depend on the processing

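Over all probe sets, 671 were called higher and 807 lower in Brg1 mutants. The counts were 421 and 1557 with median centring, 5099 and 6387 with array weights, 4126 and 5232 without mutant replicates 1 and 2, and 10 and 5 with a replicate block. With one array left out they ran from 40 to 1411 higher and from 33 to 1515 lower. The labels give mutant and wild type samples a shared replicate number and do not say that it pairs them. Deviations of same-numbered mutant and wild type samples correlated at 0.02, -0.18, -0.13 and -0.09. For differently numbered samples the correlations ran from -0.15 to 0.20, and whether samples shared a batch was not tested. Among the 16 member probe sets outside Stat4, 0 were called with all arrays, 1 with median centring (Jak1, adjusted p = 0.0448), 1 with an upper 30% filter (Stat3, adjusted p = 0.0454), 9 with array weights and 6 without mutant replicates 1 and 2, and from 0 to 1 with one array left out (limma throughout). The log2 difference of Stat4 (main value -3.08) was -4.74 with array weights, -1.55 without mutant replicates 3 and 4, -4.60 without replicates 1 and 2, and -3.77 to -2.44 with one array left out.

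Centring moved the median log2 change of all probe sets, -0.05 as deposited, to -0.22 (median), -0.19 (75th percentile) and -0.14 (quantile normalization). The signs that turned belonged to changes that did not pass with all arrays, and the cause was not tested. Among the turned values, those of Bcl2l1 without mutant replicates 1 and 2 and of Mcl1 with array weights passed (limma adjusted p = 0.0288 and 0.0271). With quantile normalization the log2 change was -0.034 for Stat3 1424272_at, -0.045 for Cish, 0.079 for Mcl1 and -0.017 for Smarca4 1426805_at. With median centring it was -0.11 for Stat3 1424272_at, -0.11, -0.13 and -0.11 for Socs3 1455899_x_at, 1456212_x_at and 1416576_at, -0.030 for Cish, -0.036 for Bcl2l1 and -0.14 for Smarca4 1426805_at. With 75th percentile centring it was -0.078 for Stat3, -0.079, -0.095 and -0.078 for Socs3, -0.00429 for Bcl2l1 and -0.11 for Smarca4. With array weights it was -0.36 for Stat3, -0.000939 and -0.00105 for Socs3 1455899_x_at and 1416576_at, -0.29 for Il4ra, -0.46 for Bcl2l1, 0.76 for Mcl1 and -0.00441 for Smarca4. Without mutant replicates 1 and 2 it was -0.53 for Stat3, -0.18, -0.028 and -0.19 for Socs3, -0.40 for Il4ra, -0.54 for Bcl2l1 and 0.70 for Mcl1. Without replicates 3 and 4 it was 0.59 and 0.23 for Jak2 1421066_at and 1421065_at, 0.17 for Tyk2, 0.42 for Il6st, -0.32 for Cish and -0.21 for Myc. With one array left out, values ran from -0.14 to 0.29 for Stat3 1424272_at, -0.40 to 0.17 for Jak2 1421066_at, -0.18 to 0.24, -0.17 to 0.27 and -0.053 to 0.24 for Socs3, -0.17 to 0.34 for Cish, -0.15 to 0.39 for Bcl2l1, -0.27 to 0.34 for Mcl1 and -0.23 to 0.31 for Smarca4 1426805_at. Over all alternatives, 265 values of members other than Stat4 kept their direction and side of the threshold, 19 crossed it and 32 turned sign. Of the other named genes' values 324 kept both, 72 lost the call, 9 gained it and 28 turned sign. With the replicate block all 10 pathway calls were lost (limma adjusted p from 0.0636 to 0.109). The Smarca4 call was lost with the block (limma adjusted p = 0.0693), without any 1 wild type array and without mutant replicate 3 or 4, at log2 changes of -1.30 to -1.18. Dim probe sets near the background bound, such as those of Stat2 and Stat5b, limit what can be read from their changes.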
